A study of Mus musculus with 2 samples.

Results

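The Sonic hedgehog pathway was examined through 9 genes in the forebrain of mouse embryos at 16.5 days of gestation. They are the ligand gene Shh, the receptor genes Ptch1, Hhip and Gas1, the transducer Smo, the inhibitor Sufu and the transcription factor genes Gli1, Gli2 and Gli3. They were taken by name, through their Ensembl identifiers, from the 43346 genes that the gene tables list, and all 9 were found once. The series holds total RNA sequencing of forebrain from the strain B6NCrl, with male and female embryos pooled. It has 1 group of 2 biological replicates, each a separate pool, of which the second held 41 embryos and the number in the first is not given. Each library was made from 10 ng of RNA longer than 200 nt with ERCC spike-in RNAs added, and no genotype or treatment differs between them. With 1 group, the data give the level of each gene and its spread between the pools, and no test between conditions was possible.

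Hedgehog ligands are secreted proteins that bind the membrane protein Ptch1. Ptch1 holds the receptor-like protein Smo inactive, and ligand binding lifts that hold, so that Smo enters the primary cilium and the Gli factors are released from Sufu. Gli2 acts mainly as an activator, Gli3 mainly as a repressor when the pathway is off, and Gli1 is an activator that is itself switched on by the pathway, as are Ptch1 and Hhip. In the forebrain, Shh is known from the hypothalamus, the zona limitans of the thalamus and the ventral telencephalon, and Gli3 from the progenitors of the cortex.

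The gene tables summed to 26957198 expected counts in replicate 2 and 31211128 in replicate 1. The labelled tissue was checked on 10 forebrain genes, all of which reached 1 TPM in each library, with Neurod6 at 489 and 389 TPM in replicates 2 and 1. None of the 10 genes listed for the midbrain and hindbrain got to 1 TPM in each, and their sums were 3.65 and 0.85 TPM in replicates 2 and 1. Of the 10, 4 had 0 counts throughout, among them Hoxa2, Hoxb2 and Hoxb4, and 6 had a higher TPM in replicate 2. The 1 with enough counts for comparison, Gata3, was at 1.89 TPM in replicate 2 against 0.34 TPM in replicate 1, from 93 and 16 counts. The marker lists of other regions and tissues differed between the pools. Hypothalamic markers summed to 14.9 TPM in replicate 2 against 45.5 TPM in replicate 1, with all 9 genes lower in replicate 2, and those of the thalamus and zona limitans to 56.9 and 95.9 TPM, with all 7 lower. Meningeal fibroblast markers summed to 503 TPM in replicate 2 against 230 TPM in replicate 1, and those of cartilage and bone to 62.0 and 20.8 TPM, with 2 of 10 genes at 1 TPM in each library.

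**Figure D1:**
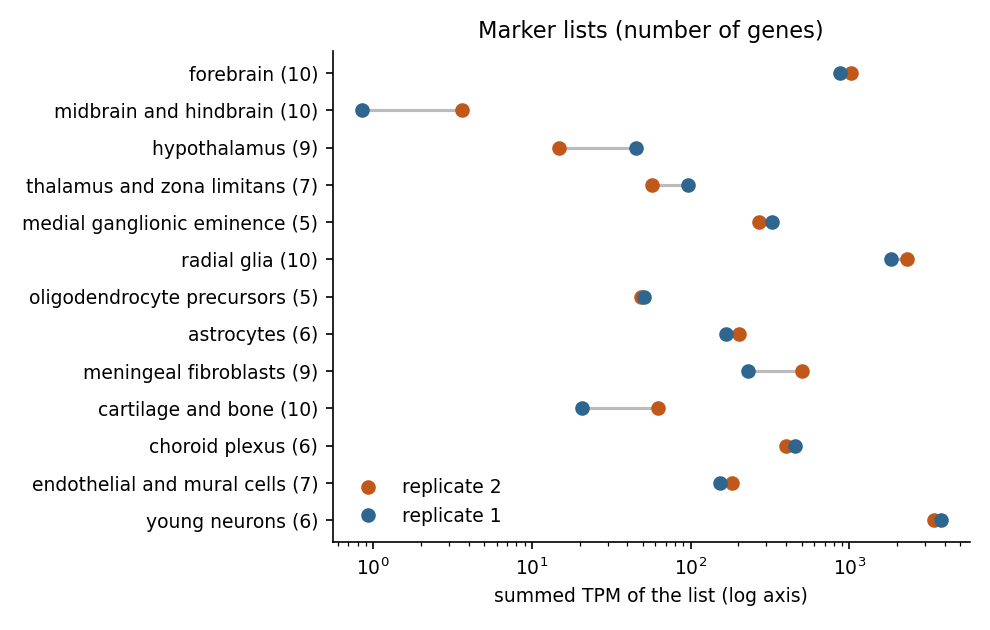
Summed TPM of each marker list (log axis) in replicate 2 and replicate 1, with the number of genes in brackets and a grey line joining the libraries. The hypothalamic list lies lower in replicate 2, at 14.9 against 45.5 TPM, and the meningeal, cartilage and bone lists higher.

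Transcripts of receiving and restraining components were more abundant than those of the ligand. In TPM, which corrects for gene length, the order of mean levels was Sufu, Gas1, Gli3, Smo, Ptch1, Gli2, Hhip, Gli1 and Shh, from 24.3 ± 3.75 TPM for Sufu to 0.80 ± 0.368 TPM for Shh (SD, n = 2). The mean of Sufu was 30.4 times that of Shh. Of the 9 genes, 8 reached 1 TPM in each library, all but Shh, and 2, Sufu and Gas1, reached 10 TPM. The median of the 9 means was 6.48 TPM, against 5.05 TPM over all 21474 listed protein-coding genes and 21.9 TPM over the 13038 of them that reached 1 TPM in each library. Of 8 neighbouring pairs in the order, 5 kept their order in both libraries with a difference of means larger than the sum of their SDs. The exceptions were Sufu and Gas1, which were 5.35 TPM apart with SDs that sum to 8.40, Gli3 and Smo, which were 1.17 TPM apart with SDs that sum to 2.02, and Gli1 and Shh, whose order differed between the libraries.

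**Figure D2:**
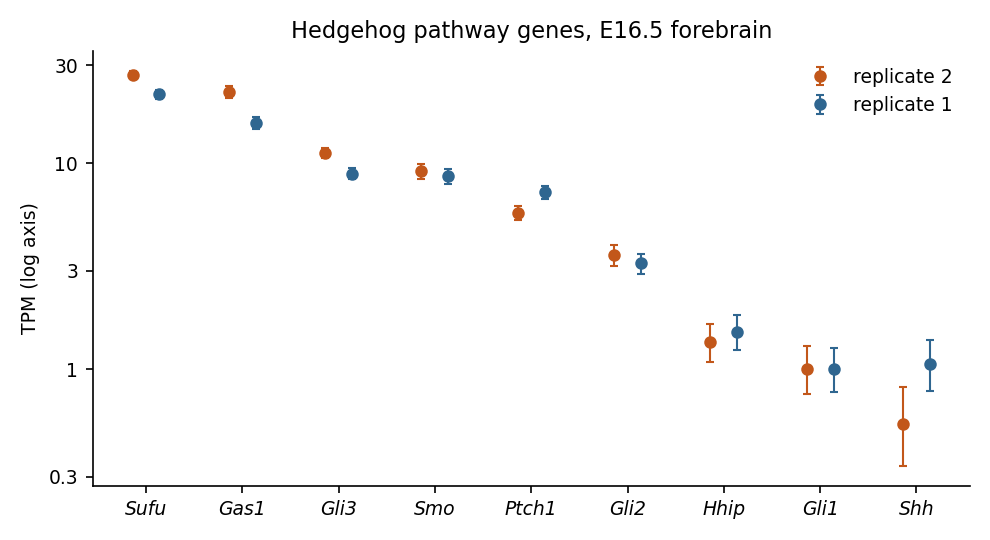
Level of each gene in TPM (log axis) in replicate 2 and replicate 1, ordered by the mean, with bars for the exact 95% Poisson interval of the counts. Levels run from 26.9 and 21.6 TPM for Sufu to 0.54 and 1.06 TPM for Shh, and the intervals of Shh overlap narrowly, between 0.782 and 0.818 TPM.

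Between the pools, no hedgehog pathway gene compared was 2-fold apart with the main scaling, while Gas1 passed that limit when spike-ins set the scale. Counts were scaled by the trimmed mean of M values (TMM), and each ratio of replicate 2 over replicate 1 has an exact 95% interval that covers counting error only and makes no allowance for variation between embryo pools. Of the 8 with a mean of at least 50 counts, 0 were at least 2-fold apart, against 1.37% of 13929 genes compared. At 1.5-fold, 0 of the 8 were higher and 0 lower in replicate 2, against 1.90% and 4.69% of all genes. Intervals lay above equality for 3 of the 8, Gas1, Gli3 and Sufu, against 26.5% of all genes, and below it for 1, Ptch1, against 24.1%. Shares of this kind are common among all genes, and nothing particular to the pathway is read from counts over 8 genes. The median log2 ratio of the 8 was 0.07, against 0.01 over all genes compared. Of the 53 other pathway genes, 45 had enough counts, of which 10 lay above equality, 11 below and 24 neither. Of these 45, 0 were 1.5-fold higher and 3 were 1.5-fold lower in replicate 2, among them Nkx2-1 and Ulk3.

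These ratios are relative to the bulk of genes. If the libraries were scaled by their ERCC spike-ins, the median of all genes compared would move by 0.55 on the log2 scale towards replicate 2. By that scaling 7 of the 8 members lay above equality and 0 below, against 3 and 1 with TMM, and 48 of 53 pathway genes lay above and 0 below, against 13 and 12. Of all 13929 genes, 86.9% lay above equality and 1.54% below by that scaling, so these counts go with the shift of the whole table. Ptch1, Hhip and Gli1 changed direction to 0.38, 0.55 and 0.53, of which the interval of Gli1, -0.01 to 1.06, held equality. Ratios between 2 genes within a library do not depend on this choice. For 12 pairs of genes, chosen by role, the log2 ratio of their TPM is given as mean ± SD over the libraries. Of these, 10 kept their sign between the libraries with a mean larger than 3 SD. Ptch1 exceeded Shh by 2.92 ± 0.37, Gas1 exceeded Shh by 4.44 ± 0.96, and Cdon was below Boc at -0.48 ± 0.15.

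**Figure D3:**
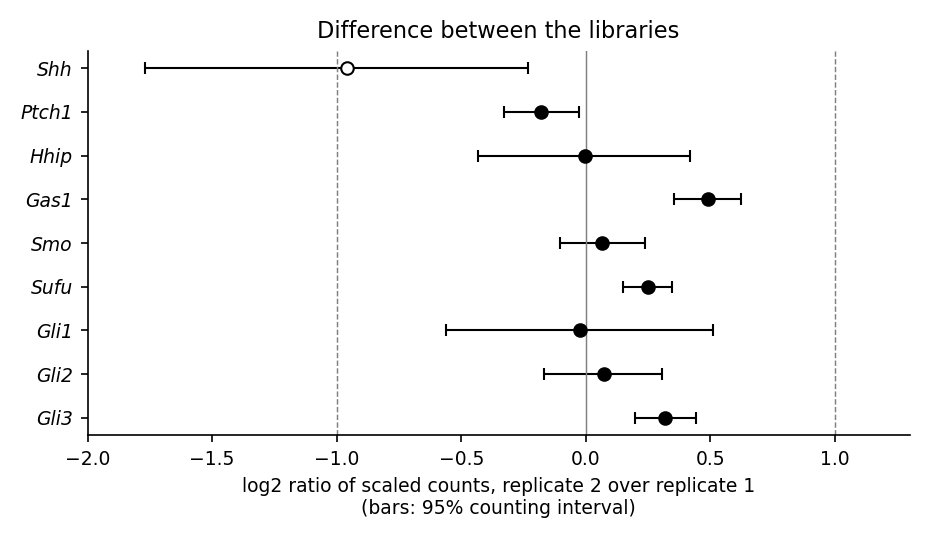
Log2 ratio of scaled counts, replicate 2 over replicate 1, for the 9 genes ordered by role, with exact 95% counting intervals and dashed lines at 2-fold. Filled points have a mean of at least 50 counts, Shh (open) has 36.5, and with this TMM scaling Gas1, Sufu and Gli3 lie above 0 while Shh and Ptch1 lie below, of which Ptch1 lies above at 0.38 with spike-in scaling.

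Shh, which encodes the ligand (ENSMUSG00000002633.3, chromosome 5, 28456815 to 28467256, minus strand), had the lowest mean of the genes, though in replicate 1 Gli1 at 1.00 TPM was below it. With TMM scaling it was also the gene with the largest ratio between the pools. With spike-in scaling all the other members but Ptch1, at 0.38, differed more than Shh. Gas1, Gli3 and Sufu led these, at 1.04, 0.87 and 0.80. Shh had 22 counts and 0.54 TPM in replicate 2, with a 95% Poisson interval of 0.338 to 0.818 TPM. It had 51.5 counts and 1.06 TPM in replicate 1, with 0.782 to 1.38 TPM. The level was thus lower in replicate 2, but the intervals, which cover counting error only, overlapped narrowly. After TMM scaling the log2 ratio of replicate 2 over replicate 1 was -0.96, with a counting interval of -1.77 to -0.23, or a fold of 0.514 (0.293 to 0.852). With spike-in scaling the ratio was -0.41 and its interval, -1.22 to 0.32, held equality. The mean of the rounded counts, 36.5, was under the minimum of 50 that was set for comparing genes, so Shh was not among the genes compared. At a minimum of 20 counts, 23.2% of 15685 genes had an interval below equality, and Shh was 1 of them.

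Marker lists of the hypothalamus, the thalamus and the medial ganglionic eminence had lower summed TPM in the same library. Among the hypothalamic genes, Avp, the vasopressin gene, was at 3.98 TPM in replicate 2 against 19.6 TPM in replicate 1, and Trh at 3.21 and 7.59 TPM. Rax and Nr5a1 were without counts in replicate 2, against 10 and 37 counts in replicate 1. Nkx2-1, a transcription factor that stands in the hypothalamic and eminence lists and is also a known target of Shh, was at 3.98 TPM in replicate 2 against 6.73 TPM in replicate 1, a log2 ratio of -0.71 (-1.01 to -0.42). Tcf7l2, the most abundant of the thalamic genes listed, was at 22.5 and 48.8 TPM, and Lhx9 at 7.16 and 13.8 TPM. All 5 genes of the medial ganglionic eminence list had a lower TPM in replicate 2, with sums of 270 and 325 TPM. In TMM-scaled counts, intervals lay below equality for 6 of 6 hypothalamic, 4 of 6 thalamic and 4 of 4 eminence genes compared. Over all genes compared the share was 24.1%. Lower sums were not limited to these lists. Young neuron genes summed to 3395 TPM in replicate 2 against 3758 TPM in replicate 1, with 5 intervals below equality and 1 above. Choroid plexus genes summed to 401 and 453 TPM, and oligodendrocyte precursor genes to 48.7 and 51.0 TPM. The remaining marker lists had higher sums in replicate 2. The thalamic genes Rora, at -0.11 (-0.34 to 0.12), and Lef1, at -0.06 (-0.23 to 0.11), held equality. The part of these markers in the difference of Shh was not tested. In bulk tissue, fewer cells of a type and less RNA per cell cannot be told apart.

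The other hedgehog ligands were near the limit of these libraries. Dhh had 17 counts and 0.48 TPM in replicate 2 and 25 counts and 0.59 TPM in replicate 1. Ihh, the ligand of growing cartilage, was at 0.13 TPM in both, with 5 counts in replicate 2 and 6 in replicate 1. Its interval of -2.08 to 1.95 on the log2 scale held equality but was too wide to tell whether Ihh went with the cartilage and bone markers. Shh made up 47.0% of the summed TPM of the 3 ligands in replicate 2 and 59.6% in replicate 1. Of the genes that process and release the ligand, Scube1 was highest at 10.9 ± 0.636 TPM, followed by Disp1, which exports the lipid-bearing ligand, at 5.57 ± 0.495 TPM. The list of 8 had 4 members with enough counts, and the counting intervals of all 4 held equality.

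RNAs of 2 genes are annotated on the strand opposite to Shh, and both were low. The lincRNA Gm26894, whose gene overlaps that of Shh by 883 bp, had 0 counts in replicate 2 against 9.53 in replicate 1, and the antisense gene 9530036O11Rik had 1 count in each. Whether reads were assigned by strand is not given in the sources used here. Of the other genes, Gli1 overlaps Arhgap9 by 62 bp, at 1.00 and 0.40 TPM in replicates 2 and 1, and Gli3 overlaps the noncoding Gm6556 by 502 bp, at 0.29 and 0.92 TPM.

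Gas1, which encodes a membrane anchored co-receptor that binds Shh (ENSMUSG00000052957.7, chromosome 13, 60174405 to 60177365, minus strand, 1 exon), was the most abundant of the ligand-binding genes among the 9. It was at 22.2 TPM in replicate 2 against 15.6 TPM in replicate 1, from 1002 and 840 counts. The level was higher in replicate 2, with a log2 ratio of 0.49 (0.36 to 0.62), the largest upward ratio of the 9. Boc and Cdon, the co-receptors of the immunoglobulin superfamily, were at 13.9 ± 1.57 and 9.91 ± 0.0707 TPM. Boc had a ratio of 0.21 (0.09 to 0.34) and the interval of Cdon, -0.25 to 0.05, held equality. Gpc3, a glypican that binds the ligand and limits its action, was the highest gene of the receptor list at 40.9 TPM in replicate 2 against 29.8 TPM in replicate 1. Lrp2, an endocytic receptor of the early ventral forebrain, was lowest at 0.25 and 0.22 TPM.

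Gas1 and Gpc3 are also expressed by mesenchyme, and markers of that tissue were higher in the same library. All but 1 of the 9 meningeal fibroblast genes had a higher TPM in replicate 2, among them Col1a1 at 141 and 37.5 TPM, Col3a1 at 132 and 73.1 TPM and Col1a2 at 101 and 35.8 TPM in replicates 2 and 1. Of the 10 cartilage and bone genes, all 10 had a higher TPM in replicate 2, led by Col2a1 at 29.9 and 14.1 TPM, and of the 10 radial glia genes 9 did, led by Fabp7 at 1456 and 1172 TPM. In TMM-scaled counts, intervals lay above equality for 8 of 9 meningeal, 5 of 6 cartilage and bone and 9 of 9 radial glia genes compared. Over all genes compared the share was 26.5%. The cartilage and bone exception, Col9a2, had a log2 ratio of -0.16 (-0.48 to 0.14). The part of these cells in the difference of Gas1 was not tested.

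Ptch1 encodes the receptor that restrains Smo (ENSMUSG00000021466.7, chromosome 13, 63508328 to 63573598, minus strand). It was at 5.73 TPM in replicate 2 against 7.22 TPM in replicate 1, from 635 and 846 counts, which put it 10435th and 9922nd of the protein-coding genes. The level was lower in replicate 2 by a log2 ratio of -0.18 in TMM-scaled counts (-0.33 to -0.03), and higher by 0.38 with spike-in scaling. On the TPM scale the ratio was -0.33, since the effective length assigned to Ptch1, which follows its transcript shares, was 7037 bases in replicate 2 and 6247 bases in replicate 1.

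The reads of Ptch1 were mostly assigned to a transcript that lacks the usual start of the protein. Ptch1-202 held 75.9% of the gene's TPM in replicate 2 and 70.2% in replicate 1. It had 472.5 of 635 counts in replicate 2 and 655.8 of 846 in replicate 1. A 305-base transcript with no match in GENCODE M21 held 10.2% of TPM in replicate 1, from 2.85 counts, and had 0 counts in replicate 2. The TPM shares in replicate 1 thus depend in part on a short transcript with few counts. Ptch1-201, which encodes the longest protein, held 10.9% and 9.79%, and Ptch1-204, annotated as subject to nonsense-mediated decay, 12.5% and 7.32%. The coding sequence of Ptch1-202 is 3891 bases and is identical to the end of the 4302 bases of Ptch1-201, which has 137 more codons at its start. The coding parts of the exons that hold their start codons are shown to make that difference visible, with the start codon in capitals. The first lies at chr13:63565362-63565520 and the second at chr13:63547996-63548126, both GRCm38, minus strand, from the GENCODE M21 transcripts.
Ptch1-201: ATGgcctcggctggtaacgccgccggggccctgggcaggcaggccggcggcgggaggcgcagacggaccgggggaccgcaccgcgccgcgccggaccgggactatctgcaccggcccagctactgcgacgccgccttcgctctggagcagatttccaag
Ptch1-202: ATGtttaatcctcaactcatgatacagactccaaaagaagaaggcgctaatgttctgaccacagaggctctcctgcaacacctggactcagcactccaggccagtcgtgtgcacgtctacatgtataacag

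The shares of these transcripts do not measure the use of their first exons alone. Of the 7002 exonic bases of Ptch1-202, 78, all in its first exon, are not in Ptch1-201. Of the 7725 bases of Ptch1-201, 374 in its first exon and 427 in its last exon, after the stop codon, are not in Ptch1-202. A stretch removed within that last exon thus also tells the transcripts apart. The posterior mean share of Ptch1-202, which the authors deposited beside the maximum likelihood one, averaged 62.8% over both libraries, and it also led. The RefSeq start of Ptch1 coincides with that of Ptch1-201, at position 63565735. The 250 bases before it (chr13:63565736-63565985, GRCm38.p6, minus strand, from RefSeq) are shown because Ptch1 is a direct target of the Gli factors.
Ptch1 promoter: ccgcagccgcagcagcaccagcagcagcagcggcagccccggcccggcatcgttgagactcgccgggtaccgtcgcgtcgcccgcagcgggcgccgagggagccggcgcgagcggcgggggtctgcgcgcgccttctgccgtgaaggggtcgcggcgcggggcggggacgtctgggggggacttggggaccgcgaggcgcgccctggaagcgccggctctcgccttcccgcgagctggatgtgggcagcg

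Hhip, a membrane protein that binds and sequesters hedgehog ligands and is itself a target of the pathway (ENSMUSG00000064325.3, chromosome 8, 79965851 to 80058006, minus strand), was low, and its counting interval held equality. It had 88 counts and 1.35 TPM in replicate 2 and 104 counts and 1.52 TPM in replicate 1. The log2 ratio of -0.005 had a counting interval of -0.43 to 0.42, so a difference of up to about that size was not detectable at this depth. Hhip-201, the protein-coding transcript, held 90.5% of its TPM in replicate 2 and 77.3% in replicate 1, and the noncoding Hhip-202 held the remainder, from 1.63 and 5.26 counts. Gas1 exceeded Hhip by a log2 ratio of 3.61 ± 0.47 in TPM.

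Smo, the transducer across the membrane (ENSMUSG00000001761.6, chromosome 6, 29735503 to 29761365, plus strand), had the smallest relative spread of the genes above 2 TPM. It was at 9.16 TPM in replicate 2 against 8.64 TPM in replicate 1, from 531 and 597 counts, with 1 listed transcript. With TMM scaling the counting interval held equality, at a log2 ratio of 0.07 (-0.11 to 0.24). With spike-in scaling the ratio was 0.62 (0.45 to 0.79), which excluded equality. Smo exceeded Shh by a log2 ratio of 3.38 ± 0.67. Ptch1 over Smo was at -0.46 ± 0.29, which did not exceed 3 SD.

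The genes that act around Smo at the cilium were all present. All 13 of the Smo list reached 1 TPM in each library, led by the ubiquitin ligase Mgrn1, which lowers Smo at the cell surface, at 79.8 ± 0.728 TPM, and by the arrestin Arrb2 at 36.6 ± 8.80 TPM. Gpr161, a ciliary receptor that keeps the pathway off, was lowest at 3.87 ± 0.0424 TPM. Of the 13, 6 had a counting interval below equality and 1, Evc, above it, against 24.1% below and 26.5% above among all genes compared, with a median log2 ratio of -0.11. Among the 6 were Arrb2 at -0.36, Tulp3 at -0.33, Iqce at -0.30, Inpp5e at -0.21 and Grk2 at -0.15. The 8 genes of intraflagellar transport and the cilium base, which the pathway needs, were all detected, from Rpgrip1l at 6.62 ± 0.205 TPM and Ift88 at 12.1 ± 0.658 TPM to Kif3a, a kinesin subunit that axons also use, at 225 ± 12.7 TPM. Of these 8, 2 lay above equality and 1 below, and nothing is read from these counts.

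Sufu, the inhibitor that holds the Gli factors in the cytoplasm (ENSMUSG00000025231.12, chromosome 19, 46396896 to 46488804, plus strand), had the highest level of the 9 genes. It was at 26.9 TPM in replicate 2 against 21.6 TPM in replicate 1, from 1712 and 1696 counts, which ranked it 5792nd and 6539th of the protein-coding genes. It was higher in replicate 2 by a log2 ratio of 0.25 (0.15 to 0.35). Sufu exceeded Gli3 by a log2 ratio of 1.26 ± 0.01, the pair with the smallest spread of the 12 compared. It exceeded Kif7, the ciliary kinesin that positions Sufu and Gli, by 3.58 ± 0.18, with Kif7 at 1.96 and 1.88 TPM in replicates 2 and 1.

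Most Sufu reads were assigned to the long transcript Sufu-201, at 85.2% of TPM in replicate 2 and 90.3% in replicate 1. Sufu-202 held 12.0% in replicate 2 and 5.85% in replicate 1, from 83.7 and 39.1 counts. The transcripts share 1744 exonic bases. They differ mainly in a longer 3′ end of Sufu-201 and in 3 bases that only Sufu-202 has, at chr19:46453159-46453161. These 3 bases add 1 codon at an exon start, after 756 identical coding bases. Coding bases on both sides of the added codon are shown, which is in capitals (chr19:46450919-46450963 joined to bases ending at 46453206, GRCm38, plus strand, from the GENCODE M21 transcripts).
Sufu-201: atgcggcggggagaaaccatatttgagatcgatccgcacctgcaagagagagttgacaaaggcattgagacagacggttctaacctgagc
Sufu-202: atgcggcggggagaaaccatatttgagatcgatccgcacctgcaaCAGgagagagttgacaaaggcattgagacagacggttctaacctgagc

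**Figure D4:**
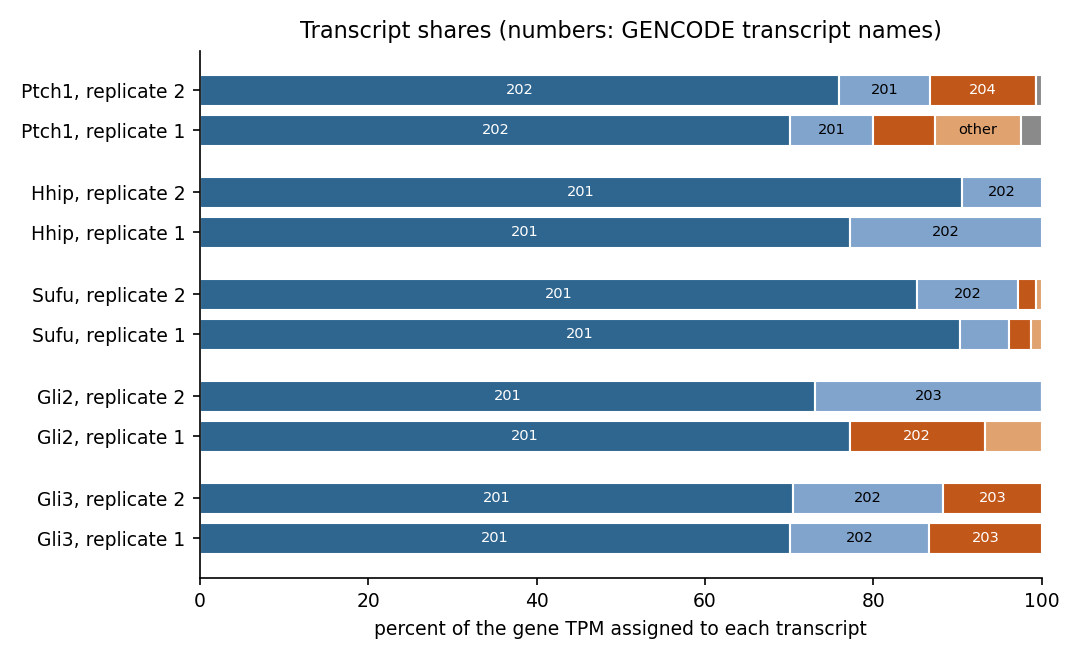
Percent of each gene's TPM assigned to its transcripts, with replicate 2 above replicate 1 and segments of at least 9% named by the number in the GENCODE transcript name, or as other where that annotation has no match. The leading transcript was the same in both libraries for all 5 genes, and Sufu-202 held 12.0% in replicate 2 and 5.85% in replicate 1.

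The Gli family was led by its repressor-forming member. Gli3 (ENSMUSG00000021318.11, chromosome 13, 15463235 to 15730026, plus strand) was at 11.2 TPM in replicate 2 against 8.90 TPM in replicate 1, from 1125 and 1061 counts. Gli2 (ENSMUSG00000048402.10, chromosome 1, 118834132 to 119053619, minus strand) was at 3.58 and 3.26 TPM, from 282 and 316 counts. Gli1 (ENSMUSG00000025407.6, chromosome 10, 127329882 to 127341974, minus strand) was at 1.00 TPM in both, from 56 and 67 counts. Gli3 thus made up 71.0% of the summed Gli TPM in replicate 2 and 67.6% in replicate 1, Gli2 22.6% and 24.8%, and Gli1 6.33% and 7.60%.

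The order Gli3, Gli2, Gli1 held in both libraries. Gli3 exceeded Gli1 by a log2 ratio of 3.20 ± 0.23 and Gli2 by 1.52 ± 0.14, and Gli2 exceeded Gli1 by 1.68 ± 0.09. Between the pools, with TMM scaling, Gli3 was higher in replicate 2 by 0.32 (0.20 to 0.44). The intervals of Gli2 at 0.07 (-0.17 to 0.31) and Gli1 at -0.02 (-0.56 to 0.51) held equality. With spike-in scaling Gli2 was at 0.62 (0.39 to 0.86), which excluded equality. Radial glia genes, which mark the progenitors where Gli3 is known to act, summed to 2288 TPM in replicate 2 against 1818 TPM in replicate 1, and 9 of 9 compared had intervals above equality, against 26.5% of all genes. Such a rise was not particular to radial glia. Intervals also lay above equality for 6 of 7 endothelial and mural genes compared, and for 4 of 5 astrocyte genes, with 1 below. The part of any of these cells in the difference of Gli3 was not tested.

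Gli3 and Gli2 reads fell mainly on the full-length transcripts. Gli3-201 held 70.4% of Gli3 in replicate 2 and 70.1% in replicate 1, Gli3-202, a shorter coding model, 17.9% and 16.5%, and Gli3-203, a retained-intron transcript, 11.7% and 13.4%. The shares of Gli3 therefore moved little between the pools. Gli2-201 held 73.1% of Gli2 in replicate 2 and 77.2% in replicate 1. The remainder was Gli2-203 in replicate 2, from 12.3 counts, and Gli2-202 and Gli2-204 in replicate 1, from 2.63 and 4.54 counts, so short transcripts with few counts carry much of the TPM. The posterior mean share of Gli2-201 was lower, at 51.3% and 52.9%. Gli1, Shh, Smo and Gas1 have 1 listed transcript each.

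The Gli binding site was searched in the promoters of the members. RefSeq promoters (GRCm38.p6, 250 bases before to 50 after the start) were at hand for 7 of the 9 genes, all but Shh and Gli1. The consensus GACCACCCA or its reverse complement was in 0 of the 7 and in 0.253% of 32851 promoters of the same length. Its inner part ACCACCC, which every full match also holds, was in 1 of the 7, Gli2, on the opposite strand and beginning 205 bases before the start, and in 4.61% of all promoters. A match is only a run of letters and no match says nothing on binding elsewhere. The 250 bases before the Gli2 start, which is that of Gli2-201 (chr1:119053620-119053869, minus strand, from RefSeq), are shown with the match in capitals.
Gli2 promoter: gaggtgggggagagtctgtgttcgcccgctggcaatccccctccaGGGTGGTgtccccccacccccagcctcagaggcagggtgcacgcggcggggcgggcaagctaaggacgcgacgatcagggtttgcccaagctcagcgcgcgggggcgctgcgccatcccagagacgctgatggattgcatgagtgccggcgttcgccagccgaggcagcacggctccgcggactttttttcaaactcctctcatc

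The promoters of the 7 genes were all richer in G and C than most, from 56.3% for Sufu to 76.3% for Ptch1, against a median of 52.7% over all promoters. They held from 12 CpG in Sufu to 47 in Ptch1, against a median of 7.

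Beyond Sufu and Kif7, the regulators of the Gli factors include kinases and ligase adaptors used by many pathways, and these were abundant. All 15 genes of the Gli list were detected, led by the protein kinase A subunit Prkar1a at 443 ± 14.1 TPM and casein kinase Csnk1a1 at 247 ± 9.81 TPM. Of the 15, 5 had intervals above equality, Gli3, Sufu, Gsk3b, Prkar1a and Csnk1a1, and 2 below, Ulk3 at -0.66 and Spop, which targets Gli factors for degradation, at -0.17. Over all genes compared 26.5% lay above and 24.1% below, so these counts show nothing particular to the list. The median ratio was 0.04.

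Target genes, which the pathway is known to switch on, were examined next. Of 14 target genes, 10 reached 1 TPM in each library and 9 had enough counts for comparison. Intervals lay below equality for 3, among them Ptch1 and Nkx2-1, above it for Mycn and Ccnd1, and held equality for Gli1, Hhip, Bcl2 and Olig2. Beside the 26.5% above and 24.1% below among all genes, 2 above and 3 below of 9 show nothing particular to the targets. Mycn, a growth regulator of progenitors with many other inputs, was highest at 167 TPM in replicate 2 against 130 TPM in replicate 1, with a ratio of 0.34 (0.28 to 0.39). Ccnd1 followed at 33.6 and 25.4 TPM. Nkx6-1 had 0 counts in both, which allows up to 0.0951 TPM in replicate 2 or 0.0799 TPM in replicate 1. Hypothalamic markers were lower and radial glia markers higher in the same library, as given above, and their part in these differences was not tested.

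**Figure D5:**
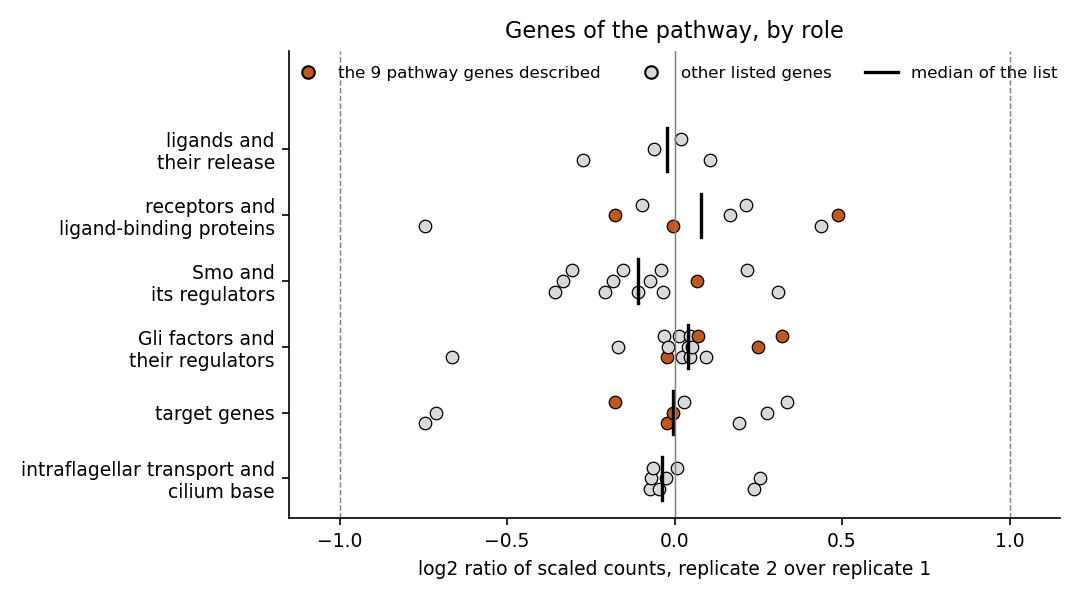
Log2 ratio of scaled counts, replicate 2 over replicate 1, for pathway genes that averaged 50 counts or more, grouped by role, with a bar at each list's median and dashed lines at 2-fold. All points lie within 2-fold, and Nkx2-1 at -0.71 and Ulk3 at -0.66 are among the lowest.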

How the data were processed

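Forebrain RNA of 2 pools was sequenced, with 1 gene and 1 transcript table each. The notes file beside each library names mm10 as the assembly and GENCODE M4 as the annotation. An aligner or quantifier is not given in the sources used. The authors deposited estimated counts (expected counts, not normalized), TPM scaled over all listed features with spike-ins inside, FPKM per kilobase and library, and each transcript's percent of its gene, per the file headers and column sums. Spike-ins held 4.10% of TPM in replicate 2 and 5.93% in replicate 1.

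Symbols and coordinates came from GENCODE M21 (GRCm38, the assembly of mm10) by identifier without version, which matched 42462 of 43346 genes. Features that are no gene (26345, with 1.62% and 2.40% of expected counts in replicates 2 and 1) stayed out of library sizes. Expected counts were rounded. TMM factors came from edgeR 4.0.16 in R 4.3.3 on the whole gene table. Log2 ratios used a prior count of 0.5 and 95% exact Clopper-Pearson intervals. These and the Poisson intervals take in the error of counting alone and treat each count as a separate molecule. PCR copies are not separate molecules, so the intervals may be too narrow even for that error. A gene was compared at a mean of at least 50 counts, and a count of 0 allows up to 3 counts. The 2 libraries are replicates of 1 group, so no p-value was computed. Over 13929 genes their counts differed beyond sampling noise (chi-square over degrees of freedom, 18.5). Pairs used log2 TPM ratios with a pseudocount of 0.1. Other steps used Python 3.11.15, numpy 2.4.6, pandas 2.3.3, scipy 1.17.1 and matplotlib 3.10.9, and the ratio procedure was tested on simulated data. The simulated counts had Poisson noise only, so that check does not cover the variation between the real libraries beyond sampling noise. Of 33 listed transcripts of the members, 26 have the same length in M21.

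The members and lists were chosen with earlier results of these data known. The text names all 9 members, pathway genes at least 2-fold apart, the 2 highest and the lowest gene of each list, genes of the pairs and up to 3 highest markers. Other genes named were chosen after their values were seen, and some genes of the lists are not reported here. Alternatives covered 3 other scalings (DESeq2 1.42.0 size factors, total counts and ERCC spike-ins), a restriction to protein-coding genes, posterior means, count minimums, prior counts, pseudocounts, FPKM, detection limits and each replicate left out.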

Additional observations from a re-analysis of the deposited data

How the results depend on the processing

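Of the counts that answer the comparisons, those that moved by more than 1.5 times did so under spike-in scaling, where 1 member (Gas1) and 1 pathway gene in all were at least 2-fold apart instead of 0, and 7 members and 48 pathway genes had intervals that exclude equality instead of 4 and 25. Ptch1 and Hhip reversed there, to log2 ratios of 0.38 and 0.55, Gli1 changed sign to 0.53 without its interval excluding equality, and Shh, at -0.41, no longer excluded it, as the shift of all genes by 0.55 makes it. Size factors of DESeq2, total counts, protein-coding genes only, posterior mean counts, a prior count of 5 and minimums of 20, 200 or no counts gave 4 or 5 members whose interval excludes equality and 0 at least 2-fold apart. The order of the 9 levels was the same with FPKM, posterior mean TPM and TPM rescaled over protein-coding genes. The count of 10 pairs was the same in every alternative, but not of the same pairs with posterior mean TPM, where Cdon over Boc missed the rule, and the cause was not tested. The leading transcript of 5 genes was the same in both libraries by posterior means, with a mean share of 62.8% for Ptch1-202 and 52.1% for Gli2-201. Detected pathway genes numbered 56 at 0.5 TPM and 49 at 2 TPM, against 53 at 1 TPM. Leaving out a replicate gives each library's own value. No paired analysis was possible because the series has 1 group. Depth limits Shh, Gli1 and Hhip most, with 22 to 104 counts in a library.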
